A study of Mus musculus with 745 samples.

Results

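The genes described here carry iron into, through and out of the cells that line brain vessels: the transferrin receptor gene Tfrc and 7 other iron handling genes, Slc40a1, Fth1, Ftl1, Ireb2, Aco1, Slc11a2 and Heph. They were chosen by symbol from the rows of the count table, and all 8 of 8 were found among its 20607 gene symbols. The samples were single primary endothelial cells from the brains of 3-month-old mice, 1 cell per sample, isolated by fluorescence-activated sorting after enzymatic dissociation. The sources used here do not give the sort markers, nor the strain, sex and genotype of the mice. The cell titles divide the samples into 3 sets, Young1 with 30.2% of all cells, Young2 with 34.6% and AY_Y3 with 35.2%. Nothing in the labels tells what separates the sets (animals, pools or plates), so the spread between them may be technical.

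There is no treated group, and the comparisons run along the vessel tree. Clusters with raised pericyte markers (27 cells) or raised astrocyte markers (23 cells) were left out of them, which left 695 endothelial cells. Each of these cells was scored within its set on 2 arterial markers (Bmx and Gkn3), 2 venous markers (Nr2f2 and Il1r1) and 2 capillary markers (Cxcl12 and Rgcc). A cell took the class of its highest score where that score led the next by at least 0.5, in standard deviations of the scaled markers. This put 15.5% of the 695 cells in the arterial-marker class, 18.3% in the venous-marker class and 36.8% in the capillary-marker class. In Young1, Young2 and AY_Y3 there were 22, 46 and 40 arterial-marker cells and 39, 41 and 47 venous-marker cells, and the capillary-marker class held 39.7%, 29.4% and 41.5% of the endothelial cells. The remaining 29.4% of the 695 cells lay between classes, and 39 cells were within 0.1 of the threshold.

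Brain endothelial cells are known to bind iron-loaded transferrin with the transferrin receptor on the blood side and to take it up in endosomes, where the iron is released and reduced. Iron then crosses the endosomal membrane, is held in ferritin or leaves the cell through ferroportin, after which a copper oxidase converts it to the form that transferrin binds. The 2 iron regulatory proteins, encoded by Aco1 and Ireb2, sense iron and bind hairpins in messenger RNA called iron-responsive elements. In the 3′ UTR of the receptor message, binding stabilises the RNA, and in the 5′ UTR of ferritin and ferroportin messages it blocks translation. Counts of messenger RNA, as here, show the first of these and not the second.

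The iron-responsive elements are shown because they show at which end of each message the regulators are known to bind. The motif searched on the sense strand of protein-coding transcripts was an unpaired C, 5 paired bases, the loop CAGTGN and 5 bases that pair with the first 5. It was present in 4 of the 8 genes, and 294 of 21901 protein-coding genes of GENCODE M21 (1.342%) hold it. The loop letters CAGTG alone occur in 93.94% of those genes. The sites are given 5′ to 3′ in DNA letters, on build GRCm38, with the loop in capitals. Tfrc has 4 sites in its 3′ UTR, on the plus strand of chromosome 16, and Slc40a1, Fth1 and Ftl1 have 1 site each in the 5′ UTR.
Tfrc, chr16:32631219-32631247, plus strand: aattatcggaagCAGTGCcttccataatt
Tfrc, chr16:32631598-32631626, plus strand: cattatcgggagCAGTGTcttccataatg
Tfrc, chr16:32631663-32631691, plus strand: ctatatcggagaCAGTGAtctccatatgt
Tfrc, chr16:32631710-32631738, plus strand: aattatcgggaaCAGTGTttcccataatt
Slc40a1, chr1:45925465-45925493, minus strand: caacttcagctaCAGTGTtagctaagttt
Fth1, chr19:9982732-9982760, plus strand: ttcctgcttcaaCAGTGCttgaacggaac
Ftl1, chr7:45459779-45459807, minus strand: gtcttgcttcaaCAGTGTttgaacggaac
Slc11a2, Ireb2, Aco1 and Heph held no match to these letters in the annotated transcripts. The search misses elements whose stem or loop departs from this strict motif. The sites listed may therefore not be all, and a gene without a match may still hold an element.

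Total counts per cell ran from 52819 to 2421434. The median was 757949 in Young1, 713031 in Young2 and 411397 in AY_Y3, and no 2 cells had identical counts. The class names fitted their defining markers: Bmx averaged 252.7 CPM (counts of a gene scaled to a cell total of 1000000) in arterial-marker cells, 7.25 CPM in venous-marker cells and 0.0709 CPM in capillary-marker cells, as the rule requires. The summed level of 10 general endothelial markers was alike in the classes, at 28960 CPM in arterial-marker cells, 27430 CPM in venous-marker cells and 29200 CPM in capillary-marker cells. The sum of 9 capillary markers, with Cxcl12 and Rgcc, was 17440 CPM in venous-marker, 19150 CPM in capillary-marker and 5889 CPM in arterial-marker cells. Itm2a alone made up most of each sum, at 12390, 10210 and 3394 CPM in the same order, so the sums say little about the other markers. The sum of 15 venous markers, with Nr2f2 and Il1r1, was 5394 CPM in venous-marker, 1451 CPM in capillary-marker and 1288 CPM in arterial-marker cells. Venous-marker cells had the most genes detected when every cell was thinned to 50000 counts, with medians of 2175 to 2382 over sets. The medians were 1626.5 to 2058 in arterial-marker cells and 1440 to 1700.5 in capillary-marker cells.

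Over all cells the 8 genes fell into 3 tiers of detection. The ferritin genes were found in nearly every cell: Fth1, the heavy chain that oxidises iron, in 724 cells (97.2%), and Ftl1, the light chain, in 716 cells (96.1%). The membrane genes formed the middle tier, with Slc40a1, the gene of the iron exporter ferroportin, in 528 cells (70.9%) and Tfrc in 340 cells (45.6%). The remaining genes had counts in few cells: Ireb2 in 96 (12.9%), Aco1 in 79 (10.6%), Slc11a2 in 54 (7.25%) and Heph in 16 (2.15%). The exact 95% binomial interval was 42% to 49.3% for Tfrc and 67.5% to 74.1% for Slc40a1. Reads carried no molecular identifiers, so such intervals and limits cover counting error only.

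The tiers were the same in each set. Tfrc had a count in 44.9% of Young1 cells, 43.8% of Young2 cells and 48.1% of AY_Y3 cells. Slc40a1 had a count in 68.9% of Young1 cells, 65.1% of Young2 cells and 78.2% of AY_Y3 cells, so AY_Y3, the set with the fewest counts per cell, was highest for both. In cells thinned to 50000 counts, detection was 41.2% for Tfrc, 63.9% for Slc40a1 and 8.32% for Ireb2, against 97% for Fth1 and 95.7% for Ftl1.

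**Figure D1:**
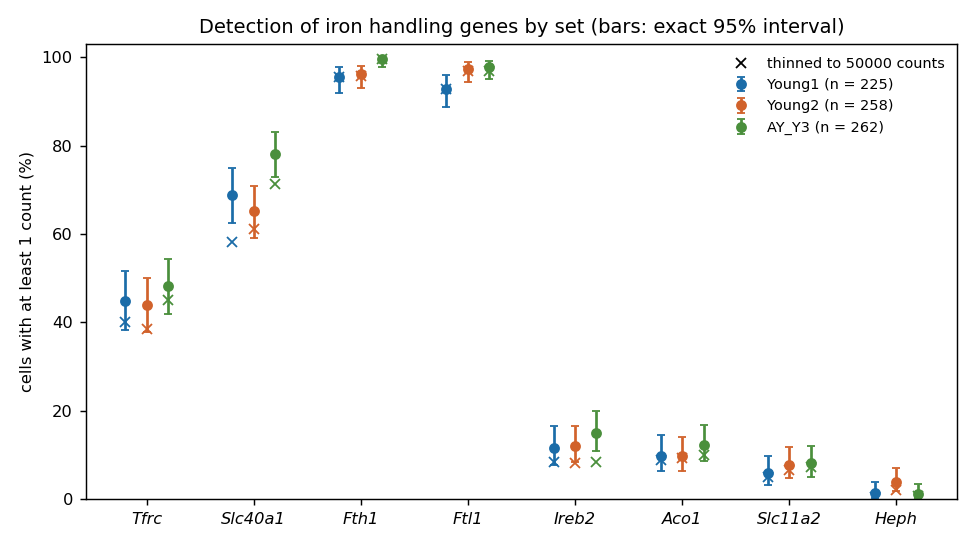
Share of cells with at least 1 count of each gene (y axis, percent) in the 3 sets, with exact 95% binomial intervals as bars; crosses give the share after each cell was thinned to 50000 counts. Fth1 and Ftl1 lie above 90% in every set, Slc40a1 and Tfrc lie in the middle, and the other genes lie below 20%.

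The level of Tfrc was steady between sets and very uneven between cells. Its mean was 213.9 CPM in Young1, 229.7 CPM in Young2 and 217.3 CPM in AY_Y3, or 220.3 ± 8.32 CPM (SD of 3 sets). The median over all cells was 0.0 CPM, while the 340 cells with a count had a median of 339.5 CPM and the highest cell reached 3699 CPM. More cells had no Tfrc count than had one, so the mean lay between these kinds of cell. Slc40a1 averaged 344 CPM in Young1, 491 CPM in Young2 and 451 CPM in AY_Y3, with a median of 98.3 CPM over all cells. Its lowest set was Young1, and the sets differed more than for Tfrc (428.5 ± 76.1 CPM, SD of 3 sets).

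Ferritin messages were high and more even. Fth1 averaged 1307 CPM in Young1, 1216 CPM in Young2 and 1199 CPM in AY_Y3, and Ftl1 averaged 1203 CPM in Young1, 1221 CPM in Young2 and 1343 CPM in AY_Y3. Their medians over all cells were 1060 CPM for Fth1 and 1185 CPM for Ftl1, far from the 0.0 CPM of Tfrc. Both genes have close copies in the genome: Ftl1-ps1 carried 7625 counts in 675 cells, against 664246 counts of Ftl1, and how reads were shared between copies was not analysed here. The annotation also places Gm10252 and Gm22133 over Ftl1, Gm5475 over Slc11a2 and Hsf3 over Heph, and the sources used here do not say whether counting used strand, so reads of these pairs may be mixed.

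The rarer messages rested on few cells. Ireb2, which encodes iron regulatory protein 2, averaged 24.8 ± 11.1 CPM and Aco1, which encodes iron regulatory protein 1, 32.8 ± 18 CPM (SD of 3 sets). Slc11a2, the endosomal iron importer DMT1, averaged 22.99 ± 6.05 CPM, and Heph, the membrane oxidase hephaestin, averaged 5.75 ± 4.60 CPM. The 5 cells with the most counts held 38.7% of all Ireb2 counts, 39.5% of Aco1 counts, 46% of Slc11a2 counts and 93.9% of Heph counts. The same share was 10.6% for Tfrc and 2.81% for Ftl1.

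Divided by exon length in GENCODE M21, the mean levels in CPM per kilobase fell in the order Ftl1, Fth1, Slc40a1, Tfrc, Aco1, Slc11a2, Ireb2 and Heph. Ftl1 stood at 937 ± 56.6 CPM per kilobase and Fth1 at 358 ± 16.7 CPM per kilobase (SD of 3 sets). Slc40a1 followed at 47.6 ± 8.45 CPM per kilobase and Tfrc at 35.6 ± 1.34 CPM per kilobase, with sets of 38.2 to 54.5 and 34.6 to 37.1 that nearly met. Slc11a2 (2.91 to 4.70 CPM per kilobase over sets) and Ireb2 (1.65 to 3.93 CPM per kilobase) overlapped, and Aco1 (4.91 to 11.9 CPM per kilobase) stood just above Slc11a2. Lengths are the union of all annotated exons, and the long exons annotated for Fth1 lower its value relative to Ftl1.

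Along the vessel tree, the receptor and exporter genes were sparse in arterial-marker cells in all 3 sets. Tfrc had a count in 16% ± 6.4 of arterial-marker cells, 64.5% ± 7.27 of venous-marker cells and 51.4% ± 5.7 of capillary-marker cells (SD of 3 sets). In thinned cells the mean share over sets was 12.1% in arterial-marker cells, 58.9% in venous-marker cells and 45.3% in capillary-marker cells. Detection differed between classes in that order at equal depth as well.

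In Young1, Young2 and AY_Y3, mean Tfrc was 55.7, 41.6 and 10.4 CPM in arterial-marker cells, 366, 352.5 and 233.6 CPM in venous-marker cells and 143.2, 249.5 and 321 CPM in capillary-marker cells. The arterial-marker values lay below every value of the other 2 classes, while the venous-marker and capillary-marker values overlapped. The mean of the sets was 35.9 ± 23.2 CPM in arterial-marker cells, 317 ± 72.9 CPM in venous-marker cells (SD of 3 sets). Within the capillary-marker class the sets differed more than 2-fold, with Young1 lowest and AY_Y3 highest.

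Detection of Slc40a1 was ordered over the classes as that of Tfrc was, and the gene was found in most venous-marker cells. It had a count in 37.7% ± 3.07 of arterial-marker cells, 94.3% ± 3.84 of venous-marker cells and 77.2% ± 10.3 of capillary-marker cells (SD of 3 sets). Its mean in Young1, Young2 and AY_Y3 was 84.6, 120 and 25.6 CPM in arterial-marker cells, 682, 697 and 753 CPM in venous-marker cells and 378, 516 and 486 CPM in capillary-marker cells. No set mean of 1 class fell within the range of another class.

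**Figure D2:**
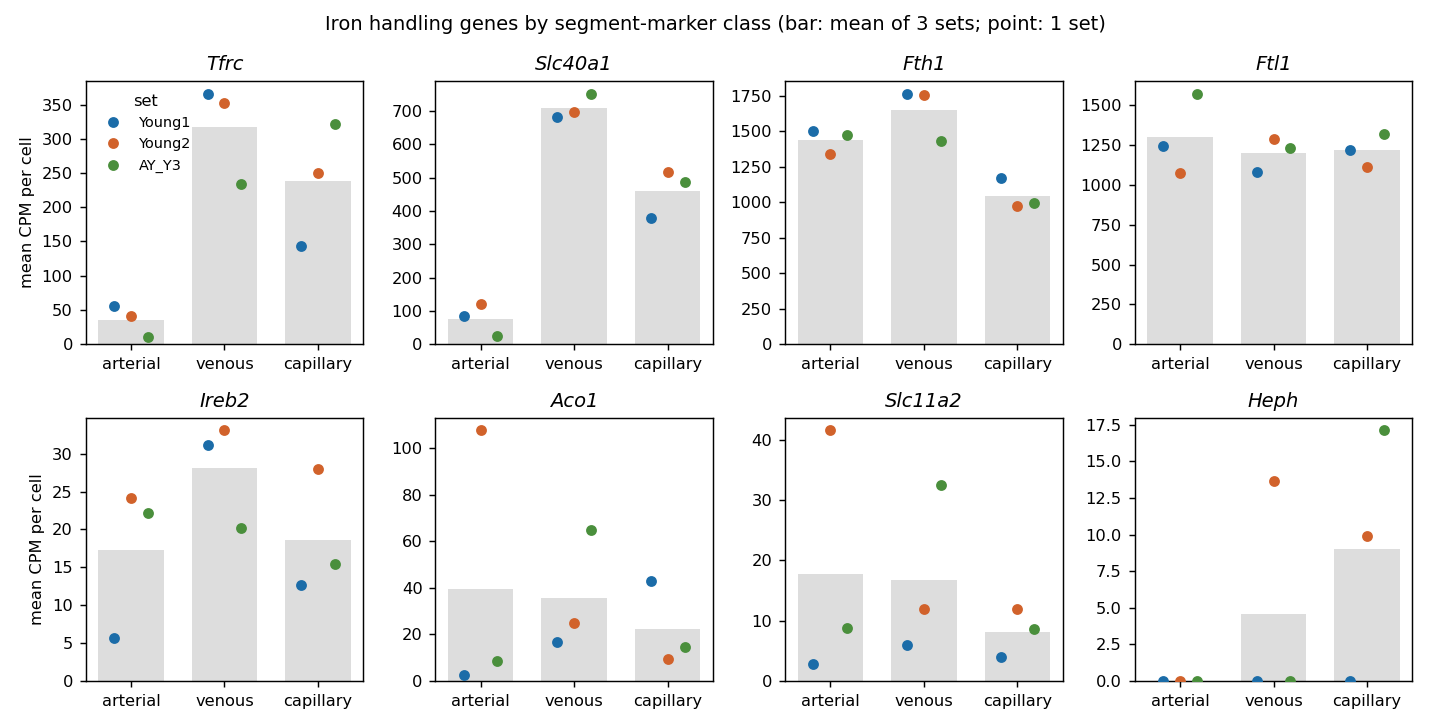
Mean CPM per cell (y axis, each panel with its own scale from 0) of the 8 genes in arterial-marker, venous-marker and capillary-marker cells; points are the 3 sets and bars their mean. Tfrc and Slc40a1 points of the arterial-marker class lie below all others, Fth1 is lowest in the capillary-marker class, and the points of Ireb2, Aco1 and Slc11a2 overlap.

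The ferritin genes had another order. Mean Fth1 in Young1, Young2 and AY_Y3 was 1498, 1341 and 1471 CPM in arterial-marker cells, 1764, 1753 and 1429 CPM in venous-marker cells and 1169, 972 and 997 CPM in capillary-marker cells. The arterial-marker and venous-marker classes both lay above the capillary-marker class in every set, and they overlapped each other. In the same sets Ftl1 was 1246, 1077 and 1574 CPM in arterial-marker cells, 1081, 1290 and 1234 CPM in venous-marker cells and 1219, 1113 and 1319 CPM in capillary-marker cells. All classes overlapped for Ftl1, and their means were 1299, 1202 and 1217 CPM in the same order.

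For the regulators and the importer the set values of the classes overlapped. Ireb2 averaged 17.3 ± 10.2 CPM in arterial-marker cells, 28.1 ± 6.94 CPM in venous-marker cells and 18.7 ± 8.20 CPM in capillary-marker cells. Aco1 averaged 39.5 ± 59.1 CPM in arterial-marker cells, where Young2 alone reached 107.7 CPM, 35.5 ± 25.7 CPM in venous-marker cells and 22.2 ± 18 CPM in capillary-marker cells. Slc11a2 averaged 17.7 ± 20.9 CPM in arterial-marker cells, 16.7 ± 13.9 CPM in venous-marker cells and 8.14 ± 4.07 CPM in capillary-marker cells (SD of 3 sets throughout). Heph was found in 0 arterial-marker cells, which allows a share of up to 2.78%, in 4 venous-marker cells and in 4 capillary-marker cells. Its mean was 0.0 CPM in the arterial-marker cells of every set, below the 0.0143, 9.87 and 17.1 CPM of the capillary-marker cells in Young1, Young2 and AY_Y3. The capillary-marker values rest on 1, 2 and 1 cells, and the difference was not tested because too few cells held Heph counts for it to enter the fit.

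The class differences were tested on counts summed per set and class, with edgeR's quasi-likelihood test, the set as a block and Benjamini-Hochberg adjustment over 9121 genes. The 6 class markers were left out of the test. Of the 8 genes, 7 passed the filter on low counts and Heph did not.

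Arterial-marker cells against capillary-marker cells gave 0 of 7 calls among the iron genes, where 45 of 9121 genes (0.493%) were called. The log2 fold change was -3.35 ± 0.76 (SE) for Tfrc, with an adjusted p of 0.166 in edgeR. Slc40a1 stood at -1.95 ± 0.54, with an adjusted p of 0.259 in edgeR. Both were lower in 3 of 3 sets and neither passed the threshold of 0.05. Fth1 was at 0.46 ± 0.15 (higher in 3 of 3 sets, adjusted p of 0.372 in edgeR) and Ftl1 at 0.07 ± 0.13. At an unadjusted p under 0.05, 3 of the 7 genes and 838 of 9121 genes (9.19%) stood out. DESeq2, with 7.93% of genes called, called 2 of the 7 (Tfrc and Fth1), and limma on the mean log2(CPM + 1) per cell, with 6.73% called, also called 2 (Tfrc and Slc40a1).

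Arterial-marker cells against venous-marker cells gave 0 of 7 calls as well, where 1.37% of 9121 genes were called in edgeR. Tfrc stood at -3.56 ± 0.74 (SE, log2) with an adjusted p of 0.0728 in edgeR, and Slc40a1 at -2.69 ± 0.56 with an adjusted p of 0.0723 in edgeR. Both were lower in 3 of 3 sets. Fth1 (-0.20 ± 0.15) and Ftl1 (0.12 ± 0.13) were close to 0 on the log2 scale. At an unadjusted p under 0.05, 2 of the 7 genes and 11.4% of all genes stood out, and Tfrc and Slc40a1 were the 2 that DESeq2 (10.8% of genes called) and limma (11.7%) called.

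Venous-marker cells against capillary-marker cells gave 0 of 7 calls and 0 of 9121 genes (0.0%) in edgeR. Fth1 had a log2 fold change of 0.66 ± 0.15 (higher in 3 of 3 sets, adjusted p of 0.488 in edgeR), and Slc40a1 had 0.73 ± 0.51 (higher in 3 of 3 sets). Tfrc was at 0.21 ± 0.68 and Ftl1 at -0.04 ± 0.13, with sets on both sides of 0. At an unadjusted p under 0.05, 1 of the 7 genes and 422 of all genes (4.63%) stood out. DESeq2, with 2.59% of genes called, called Fth1, and limma, with 8.33% called, called Slc40a1.

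Without the set as a block, Tfrc and Slc40a1 passed in arterial-marker against venous-marker cells in edgeR, with adjusted p of 0.0300 and 0.0317, where 1.73% of genes were called, and neither passed against capillary-marker cells. With every cell thinned to 50000 counts before summing, so that deep cells weigh no more than shallow ones, edgeR called both genes in both comparisons. The adjusted p for Tfrc was then 0.0223 against capillary-marker cells, where 1.92% of genes were called, and 0.00730 against venous-marker cells, where 3.46% were called. For Slc40a1 the values were 0.0138 and 0.00348. With a count required in 20% of cells, edgeR called both genes against venous-marker cells (adjusted p of 0.0238 and 0.0227), where 4.8% of genes were called. Where every cell was given the class of its highest score, Tfrc moved to -0.73 ± 0.44 against capillary-marker cells and to -1.0 ± 0.43 against venous-marker cells (log2, SE).

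**Figure D3:**
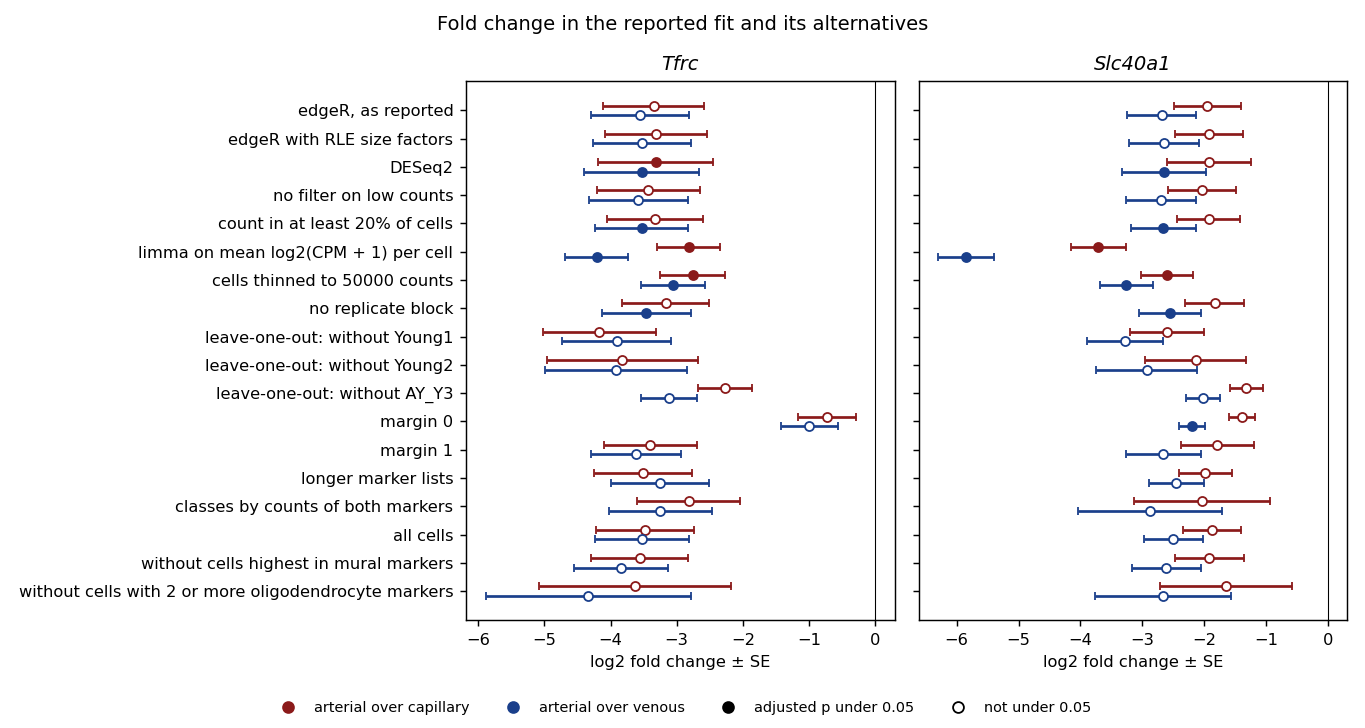
Log2 fold change with its SE (x axis) of Tfrc and Slc40a1 in arterial-marker over capillary-marker cells and arterial-marker over venous-marker cells, under the reported edgeR fit and each alternative (y axis); filled points have an adjusted p under 0.05. All points lie below 0, and most are open.

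The genes whose set means did not overlap were also counted. Between arterial-marker and capillary-marker cells, 2 of the 7 tested iron genes (Tfrc and Slc40a1) lay wholly lower, against 8.81% of all tested genes, and 1 (Fth1) wholly higher, against 8.12%. Between arterial-marker and venous-marker cells, 2 of 7 (Tfrc and Slc40a1) lay wholly lower, against 10.8%, and 0 of 7 wholly higher, against 8.29%. Between venous-marker and capillary-marker cells, 2 of 7 (Slc40a1 and Fth1) lay wholly higher, against 7.39%, and 0 of 7 wholly lower, against 6.19%. The median log2 fold change of the 7 genes was 0.07 in arterial-marker against capillary-marker cells, -0.42 in arterial-marker against venous-marker cells and 0.66 in venous-marker against capillary-marker cells. The medians over all tested genes were -0.06, -0.06 and -0.01 in the same comparisons. The 3 comparisons share their sums, so their values are not independent of each other.

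Other cell types' markers moved with the classes to different degrees. The summed level of 8 astrocyte markers ran over sets from 1340 to 2576 CPM in arterial-marker cells, against 66.5 to 120.4 CPM in venous-marker cells and 113.4 to 230.6 CPM in capillary-marker cells. Clu, at 1723 CPM against a mean sum of 1777 CPM, made up nearly all of the arterial value. No marker of this list averaged above 81.94 CPM in the other classes, so the higher arterial sum was largely that of Clu. The sum of 7 smooth muscle markers was 177.1 to 537 CPM in arterial-marker cells, 27.4 to 82.98 CPM in venous-marker cells and 41.5 to 75.01 CPM in capillary-marker cells. The sum of 10 pericyte markers was 26.98 to 552 CPM in arterial-marker cells, 484 to 770 CPM in venous-marker cells and 410 to 577 CPM in capillary-marker cells. In arterial-marker cells the pericyte markers Kcnj8, Abcc9, Atp13a5 and Anpep were at 0. The sum of 9 oligodendrocyte markers, mostly Mal, was 1103 to 1708 CPM in arterial-marker cells, 1749 to 2106 CPM in venous-marker cells and 1035 to 2355 CPM in capillary-marker cells, with Mog and Mag at 0 in the first 2 classes. All 5 red cell markers in the table were at 0 in arterial-marker and venous-marker cells, and their sum reached at most 2.30 CPM in capillary-marker cells. With the cells highest in pericyte or smooth muscle markers left out, Tfrc stood at -3.56 ± 0.73 (log2, SE) in arterial-marker against capillary-marker cells. Slc40a1 stood at -1.92 ± 0.56. This step removed few arterial-marker cells, and none in AY_Y3, so the values could hardly move. The part of pericyte and smooth muscle markers in the class values was therefore not tested. The part of astrocyte markers and of the number of genes detected in the class values was not tested.

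Seen along single markers, Tfrc and Slc40a1 were low where Bmx, a kinase gene of arterial endothelium, was found. Mean Tfrc in the 3 sets, in the same order, was 59.2, 69.5 and 78.7 CPM in endothelial cells with a Bmx count, against 238.7, 266.9 and 265.5 CPM in cells without one. Mean Slc40a1 was 140.6, 227.7 and 134.2 CPM in cells with Bmx, against 393.5, 588 and 529 CPM in cells without. The groups did not overlap for either gene, and the share of all genes that did so was not counted. Gkn3, an arterial marker found in 57 cells, gave the same direction in 3 of 3 sets, with Tfrc at 57.5 ± 33.6 CPM with it and 231.5 ± 9.93 CPM without it (SD of 3 sets).

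The venous markers gave the opposite direction. In cells with a count of Nr2f2, the transcription factor that specifies veins, Tfrc averaged 292.5 ± 46.3 CPM, against 200.8 ± 14.1 CPM in cells without it. Slc40a1 averaged 709 ± 89.1 CPM with Nr2f2 and 366 ± 61.8 CPM without it. Cells with Il1r1, an interleukin receptor gene, averaged 308 ± 50.6 CPM of Tfrc, against 200.3 ± 9.86 CPM without it, and 646 ± 36.3 CPM of Slc40a1, against 387 ± 72.2 CPM without it (SD of 3 sets). Each of these 4 differences had the same sign in 3 of 3 sets, though Tfrc in AY_Y3 was at 239.6 CPM with Nr2f2 and 216.9 CPM without it. Cells without a venous marker include most arterial-marker cells, where both genes were lowest.

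The capillary markers divided the mean level of Tfrc without a common direction over sets, while its detection was higher with each of them in 3 of 3 sets. Tfrc had a count in 50.4% of cells with Rgcc and 34.6% without it, and in 47.2% with Cxcl12 and 31.9% without it (means of 3 sets). Cells with a count of Rgcc averaged 226.1 ± 39.3 CPM of Tfrc, against 189.4 ± 81 CPM in cells without it. Cells with Cxcl12, a chemokine gene, averaged 214.2 ± 18.7 CPM, against 228.5 ± 97 CPM without it (SD of 3 sets). For both markers the mean level was lower with the marker in Young1 and higher with it in the other 2 sets. Slc40a1 was higher with either capillary marker in 3 of 3 sets, at 473 ± 83.7 CPM with Rgcc and 333 ± 86.6 CPM without it.

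Fth1 was higher with each arterial and venous marker and lower with each capillary marker, in 3 of 3 sets each. In Young1, Young2 and AY_Y3 it was 1756, 1508 and 1478 CPM in cells with Bmx, against 1234, 1144 and 1117 CPM in cells without, and 1926, 1939 and 1481 CPM in cells with Il1r1, against 1210, 1087 and 1129 CPM in cells without. It averaged 1161 ± 76.2 CPM in the 614 cells with Cxcl12, against 1924 ± 597 CPM in the 81 cells without (SD of 3 sets). Ftl1 stood at 1327 CPM in cells with Bmx and 1237 CPM in cells without it, higher in 2 of 3 sets. These cells are largely those of the classes above, so the marker values and the class values are not independent, and the marker values were not tested. How many of all genes had the same sign in 3 of 3 sets was not counted for single markers.

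**Figure D4:**
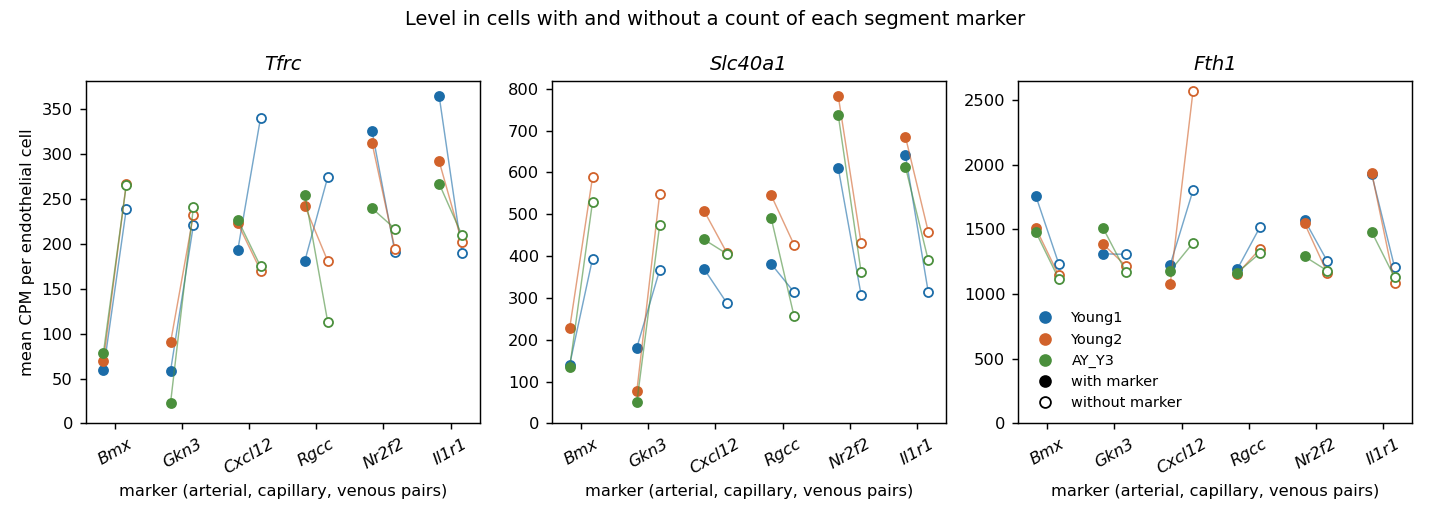
Mean CPM per endothelial cell (y axis, from 0) of Tfrc, Slc40a1 and Fth1 in cells with (filled) and without (open) a count of each segment marker (x axis), joined by a line for each of the 3 sets. Tfrc and Slc40a1 are lower in cells with Bmx and higher in cells with Nr2f2 in every set, while Fth1 is higher with both.

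Co-expression was judged within each set over all cells on log2(CPM + 1), as a description without a test, since the cells of a set are not independent replicates and differ in depth. Of the 28 pairs among the 8 genes, Tfrc and Slc40a1 had the highest Pearson correlation, at 0.345 in Young1, 0.325 in Young2 and 0.338 in AY_Y3. Fth1 and Ftl1 came next, at 0.249 in Young1, 0.055 in Young2 and 0.111 in AY_Y3, so that their mean of 0.138 rested largely on Young1. Tfrc and Slc11a2, whose products act at the same endosome, averaged 0.112. The other 25 pairs had mean correlations under 0.1 in size, among them Tfrc and Fth1 at -0.05 and the regulators Ireb2 and Aco1 at -0.042. By Spearman's rho, Tfrc and Slc40a1 again had the highest mean, at 0.335, but Fth1 and Ftl1 averaged 0.062, with -0.057 in Young2, below Tfrc and Slc11a2 at 0.105. Tfrc and Fth1 were then at -0.122. Correlations this weak in sparse counts are no finding. Tfrc correlated with the number of genes detected at 0.25, 0.23 and 0.24 in Young1, Young2 and AY_Y3, and Slc40a1 at 0.25, 0.21 and 0.20, and the part of that number in the pair's value was not tested.

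**Figure D5:**
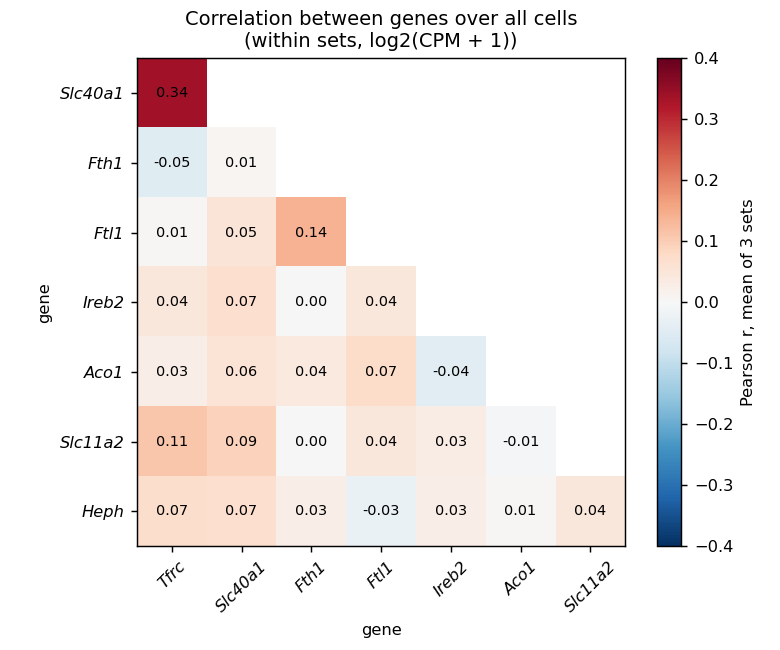
Pearson correlation of log2(CPM + 1) between each pair of the 8 genes, computed over the cells of each set and averaged over the 3 sets; colour and printed value give the mean. The pair Tfrc and Slc40a1, at 0.34, stands out, and the pair Fth1 and Ftl1 follows at 0.14.

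In the 695 endothelial cells, 275 had counts of both Tfrc and Slc40a1 and 41 of Tfrc alone. In Young1, Young2 and AY_Y3, 64, 69 and 82 cells had counts of Slc40a1 alone and 54, 67 and 43 of neither. Slc40a1 was found in 87% of cells with Tfrc and in 56.7% of cells without it. Its mean level was 612 CPM in cells with Tfrc and 283 CPM in cells without it. Cells with the receptor but not the exporter were the smallest of the 4 groups in every set. With Tfrc in 45.5% and Slc40a1 in 70.5% of the 695 cells, this group would be smallest without any link between the genes.

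The joint pattern was also read by class, without a test. Both genes were found in 6.48% of arterial-marker cells, 63.8% of venous-marker cells and 45.7% of capillary-marker cells. Neither gene was found in 54.6% of arterial-marker cells, 4.72% of venous-marker cells and 15.2% of capillary-marker cells. These shares largely restate the separate detection of each gene by class given above, and no excess over it was tested. Within a class the correlation of the 2 genes was lower and uneven over sets: 0.01 to 0.20 in arterial-marker cells, 0.10 to 0.48 in venous-marker cells and 0.01 to 0.37 in capillary-marker cells. Fth1 did not follow the receptor, at 1142 CPM in cells with Tfrc and 1332 CPM in cells without it.

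Over endothelial cells, 3402 genes were detected in 20% or more of each set's cells. The 5 most like Tfrc among them, by within-set Pearson correlation averaged over the 3 sets, were Gatm (0.44), Car4 (0.43), Slc16a1 (0.41), Slc7a5 (0.41) and Ctla2a (0.38). Gatm encodes a creatine synthesis enzyme, Car4 a membrane carbonic anhydrase, Slc16a1 a monocarboxylate transporter and Slc7a5 a large neutral amino acid transporter. Slc40a1 ranked 14 in that list. The 5 genes most like Slc40a1 were Gatm (0.48), Car4 (0.44), Slc7a5 (0.43), the organic anion transporter gene Slc22a8 (0.42) and the amino acid transporter gene Slc38a5 (0.41), and Tfrc ranked 20. Gatm, Car4 and Slc7a5 stood in both lists, while Fth1 ranked 3261 for Tfrc and 2734 for Slc40a1.

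A list of 53 other symbols of iron handling genes was set beside the 8, with Hjv and Hfe2 naming the same gene. Of these, 10 symbols, among them Tfr2 and Hamp, matched no symbol in the count table and were not analysed here. Other names of these genes were not searched. The filter on low counts was passed by 29 genes. In edgeR 0 of 29 were called in arterial-marker against capillary-marker cells, where 0.493% of all genes were called, and 5 had an unadjusted p under 0.05, against 9.19% of all genes. Likewise 0 of 29 were called in venous-marker against capillary-marker cells, where 0.0% of all genes were called, and 2 had an unadjusted p under 0.05, against 4.63% of all genes. In arterial-marker against venous-marker cells 2 were called, both higher, where 1.37% of all genes were called, and 8 had an unadjusted p under 0.05, against 11.4% of all genes. In this comparison the list's median log2 fold change was 0.11 against -0.06 over all genes tested.

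The 2 genes that rose in arterial-marker cells were regulators. Epas1, which encodes the hypoxia-inducible factor 2α, stood at 2455, 2599 and 2442 CPM in arterial-marker cells of Young1, Young2 and AY_Y3, against 1181, 1265 and 1650 CPM in venous-marker cells. The difference was 1.01 ± 0.15 on the log2 scale (SE, adjusted p of 0.0274 in edgeR, higher in 3 of 3 sets). Smad6, an inhibitor of BMP signalling, stood at 114.6, 89.2 and 43.3 CPM in arterial-marker cells, against 14.01, 18.3 and 6.43 CPM in venous-marker cells. The difference was 3.68 ± 0.63 on the log2 scale (SE, adjusted p of 0.0401 in edgeR, higher in 3 of 3 sets). Without the set as a block the adjusted p in edgeR was 0.0232 for Epas1 and 0.0748 for Smad6. Leaving out any 1 set ended both calls in edgeR, with an adjusted p of 0.117 to 0.223 for Epas1 and 0.203 to 0.303 for Smad6.

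Among uptake genes, Steap3, an endosomal ferrireductase that passes iron on from transferrin, had counts in 2 arterial-marker cells, 31 venous-marker cells and 32 capillary-marker cells. Its mean was 0.0, 1.77 and 0.779 CPM in arterial-marker cells of Young1, Young2 and AY_Y3, against 82.9, 40.8 and 57.1 CPM in venous-marker cells and 26.7, 68.5 and 48.2 CPM in capillary-marker cells. The arterial-marker values lay below all others. The fitted log2 difference was -7.24 ± 1.34 against venous-marker cells (adjusted p of 0.0530 in edgeR) and -6.75 ± 1.30 against capillary-marker cells (adjusted p of 0.0972 in edgeR), and it rests on 39 arterial counts.

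Slc39a8, a metal importer of the ZIP family, averaged 22.3 ± 19.4 CPM in arterial-marker cells, 109.3 ± 16.5 CPM in venous-marker cells and 105.1 ± 44.4 CPM in capillary-marker cells (SD of 3 sets). Its log2 difference was -3.62 ± 1.37 against venous-marker cells (adjusted p of 0.363 in edgeR) and -3.36 ± 1.35 against capillary-marker cells (adjusted p of 0.502 in edgeR). Trf, the transferrin gene, had counts in 3 arterial-marker cells, 1 venous-marker cell and 7 capillary-marker cells. Slc39a14 had counts in 1, 0 and 1 cells of these classes and Cybrd1 in 2, 1 and 2 cells. Hfe, whose product binds the transferrin receptor, was found in 20, 22 and 40 cells of these classes, without a call in edgeR.

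On the export side, Cp, the gene of the iron oxidase ceruloplasmin, had its highest mean in arterial-marker cells, where the exporter had its lowest. Its mean was 326, 427 and 441 CPM in arterial-marker cells of Young1, Young2 and AY_Y3, against 182.6, 391 and 291 CPM in venous-marker cells and set means of up to 203.9 CPM in capillary-marker cells. The log2 difference was 1.47 ± 0.39 in arterial-marker against capillary-marker cells (higher in 3 of 3 sets, adjusted p of 0.221 in edgeR) and 0.77 ± 0.38 in arterial-marker against venous-marker cells (higher in 3 of 3 sets, adjusted p of 0.531 in edgeR). Neither passed the threshold, and Cp had a count in 84 arterial-marker cells, where Heph had none.

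Of the remaining genes, Ncoa4, the cargo receptor that delivers ferritin to lysosomes, was found in 28 arterial-marker cells, 40 venous-marker cells and 48 capillary-marker cells. Fbxl5, part of the ligase that degrades iron regulatory proteins, was found in 24, 41 and 52 cells of these classes. Neither gene was called in edgeR. Hmox1, which breaks down haem, had counts in 1, 1 and 11 cells of these classes. Bmp2 had counts in 6, 2 and 0 cells and Bmp6 in 1, 0 and 0 cells. These BMP ligand genes are known to be made by liver endothelium as inducers of hepcidin.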

How the data were processed

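The deposited table holds raw read counts, 1 column per cell, which the authors did not normalize. The submitters' processing notes list Bowtie 0.12.2, mm8 and mm10, with no word on how each was used. The sources used here name no counting tool, annotation or strand setting. CPM scales a cell's counts to a total of 1000000. Cells were clustered (scanpy 1.11.5, 2000 variable genes, 10 principal components, 15 neighbours, Leiden resolution 1), and clusters whose raised markers were those of pericytes or astrocytes were left out. Raised meant 1.25 times the level in other cells, with detection in 25% or more of the cluster. No doublet caller was run, so doublets of endothelial cells stay in.

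Counts were summed per set and class into 9 sums and tested with edgeR 4.0.16 (R 4.3.3, TMM, set as a block, 4 residual degrees of freedom, adjusted p under 0.05) on genes with a count in at least 5% of cells that passed edgeR's default filter. DESeq2 1.42.0 and limma 3.58.1 were alternatives. The block takes out differences between whole sets, so each p-value judges a class difference against the spread between sets that remains. That spread is pooled over the 3 classes and shared in part between genes, so it is not that of the 1 class difference alone. No label says that sets are separate animals, so this spread may not be that between animals. Tested on simulated data for arterial-marker against capillary-marker cells (9121 genes), the fit recovered 12 of 100 genes changed by 2 and 30 of 100 changed by 3 on the log2 scale, with 2 false calls. Of the same set's sums, deviations from class means correlated at 0.01 to 0.06.

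The 8 genes, the list of 53 iron symbols and the marker lists were chosen with earlier results of these data known. The text names all 8 genes, list genes called by edgeR, a fixed group of list genes and the 5 genes most like Tfrc and Slc40a1. Hairpins and exon lengths come from GENCODE M21 (GRCm38), joined by symbol.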

Additional observations from a re-analysis of the deposited data

How the results depend on the processing

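The share of tested genes that edgeR called in arterial-marker against capillary-marker cells was 0.493%, against 7.93% with DESeq2, 6.73% with limma, 1.92% with thinned cells, 2.28% with a count required in 20% of cells, 0.12% with no filter on low counts and 0.778% with no replicate block. Other class rules gave 0.153% (highest score without a margin), 0.865% (longer marker lists) and 0.0357% (counts of both markers), and leaving out cells gave 0.322% (highest in mural markers, those of pericytes and smooth muscle) and 0.0% (2 or more oligodendrocyte markers). In venous-marker against capillary-marker cells the share was 0.0%, against 2.59% with DESeq2, 8.33% with limma, 0.0519% thinned, 0.0219% without a margin, 0.0834% by counts of both markers and 0.0111% without cells highest in mural markers. In arterial-marker against venous-marker cells it was 1.37%, against 10.8% with DESeq2, 11.7% with limma, 3.46% thinned, 4.8% with the 20% filter, 0.35% with no filter, 0.764% with a margin of 1, 0.876% with longer lists, 0.333% by counts of both markers and 0.0% without cells with 2 or more oligodendrocyte markers. Leaving out a set gave 0.0% to 0.0439% against capillary-marker cells and 0.0221% to 0.362% against venous-marker cells, from fewer samples.

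Of the iron genes, DESeq2, limma and thinning each called 2 in arterial-marker against capillary-marker cells. DESeq2 and limma called 1 each in venous-marker against capillary-marker cells. In arterial-marker against venous-marker cells 2 were called with DESeq2, limma, thinning, the 20% filter and no replicate block, and 1 (Slc40a1) without a margin. Over 17 alternatives the log2 difference of Tfrc stayed below 0, at -4.17 to -0.73 against capillary-marker cells (adjusted p 0.00118 to 0.818) and -4.34 to -1.0 against venous-marker cells (adjusted p 1.61e-05 to 0.594). That of Slc40a1 ran from -3.71 to -1.32 (adjusted p 4.87e-05 to 0.990) and from -5.85 to -2.02 (adjusted p 2.49e-07 to 0.681). Without AY_Y3, Tfrc was at -2.27 and Slc40a1 at -1.32 against capillary-marker cells.

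Some signs turned. The values for Ftl1 were -0.03 by counts of both markers against capillary-marker cells; 0.24 (limma), 0.12 (longer lists), 0.00 (counts of both markers) and -0.14 to 0.01 (a set left out) in venous-marker against capillary-marker cells; and -0.03 with longer lists and by counts of both markers in arterial-marker against venous-marker cells. Fth1 turned to 0.17 (limma), 0.05 (without cells with oligodendrocyte markers) and -0.36 to 0.00 with a set left out in arterial-marker against venous-marker cells. Tfrc in venous-marker against capillary-marker cells was -0.26 with longer lists, and -0.26 to 0.85 with a set left out. Ireb2, Aco1 and Slc11a2 had the opposite sign against capillary-marker cells in 4 of 16, 4 of 16 and 5 of 15 alternatives for arterial-marker cells (ranges of -4.83 to 2.67, -3.36 to 2.07 and -5.76 to 1.47) and in 1, 4 and 5 for venous-marker cells. In arterial-marker against venous-marker cells the counts were 1, 3 and 4, and none of these differences was called. The cause of these changes was not tested. Of 372 log2 differences of Tfrc, Slc40a1, Fth1, Ftl1, Steap3, Slc39a8, Cp, Epas1 and Smad6, 305 kept their direction and side of the threshold. Another 38 became called, 17 lost their call and 12 changed sign. Only Epas1 and Smad6 were called in the reported fit, so most of the 305 stayed uncalled. Ireb2, Aco1 and Slc11a2 are not among the 372. Detection depended on depth as given above, and the sets' deviations correlated too little to pair them.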

Other observations

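The 50 cells left out of the class comparisons also carried the iron genes. In the 27 cells of clusters with raised pericyte markers, Tfrc averaged 151.6 CPM, against 217.6 CPM in the 695 endothelial cells. In the 23 cells of clusters with raised astrocyte markers, Tfrc averaged 391 CPM and Slc40a1 642 CPM, against 433 CPM of Slc40a1 in endothelial cells. The median summed level of 10 endothelial markers was 16610 CPM in the first group and 27540 CPM in the second, against 28160 CPM in endothelial cells, so both groups carried endothelial RNA. Fth1 stood at 1191 CPM and 1054 CPM in these groups, against 1246 CPM in endothelial cells.

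In AY_Y3, 1 cell at 1748 CPM held 67.6% of that set's Heph counts.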
